A study of Mus musculus with 24 samples.

Results

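The CXC chemokines described here are 8 genes: Cxcl1, Cxcl2, Cxcl3, Cxcl5, Cxcl9, Cxcl10, Cxcl11 and Cxcl16. They were chosen by gene symbol, and each has 1 row in both expression tables, which list 22996 genes for primary macrophages and 54380 for a macrophage line. RNA was measured by sequencing of polyadenylated RNA in 24 mouse macrophage libraries, 8 groups of 3. The study asked how the C-terminal binding proteins CtBP1 and CtBP2, nuclear co-repressors that DNA-bound factors recruit, bear on inflammatory genes.

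The 18 libraries of bone marrow-derived macrophages (BMDMs) came from male C57BL6/N mice aged 6 to 12 weeks, whose marrow was grown to day 6 in L929-conditioned medium. These cells received Ctbp2 siRNA, Ctbp1 siRNA or control siRNA, which reduce an mRNA by base pairing with it. Each siRNA group was then given LPS (lipopolysaccharide, a ligand of the receptor Tlr4 from bacterial envelopes) at 100 ng/ml or PBS vehicle for 4 h. The 6 remaining libraries were from J774.1, a macrophage line of a female BALB/c mouse, either Ctbp1/2 double knockout or wildtype, all with the same LPS dose and time. The labels do not say how many clones the knockout comes from. BMDM replicates are numbered 1, 3 and 4 and J774.1 replicates 1, 2 and 3. The labels call them biological but do not name separate cultures or animals, so p-values measure the spread between these samples.

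Chemokines of the CXC family are small secreted proteins that bind G protein-coupled receptors on leukocytes and draw them into tissue. Cxcl1, Cxcl2, Cxcl3 and Cxcl5 carry the ELR motif and act on Cxcr2 of neutrophils. Cxcl9, Cxcl10 and Cxcl11 lack it, act on Cxcr3 of activated T cells and natural killer cells, and are classical interferon targets. Cxcl16 is made as a membrane-bound protein that is shed by Adam10 and Adam17 and acts on Cxcr6. In macrophages, LPS reaches these genes through Tlr4 by an arm that ends in NF-kB and an arm that ends in interferon-beta and STAT factors. The mRNAs of the ELR ligands are further known for AU-rich elements in their tails, which decay factors such as Zfp36 bind.

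The sequence just before the start site is shown for the 4 members that carry most of the results, since all 4 hold the same NF-kB-type word. Sequences are from RefSeq on GRCm38.p6, a different build from the mm39 that the BMDM table's headers name, and 5 of the 8 members are in that promoter table (Cxcl1, Cxcl2, Cxcl3, Cxcl9 and Cxcl10). Each line holds the 250 bases before the start. These are chr5:90890995-90891244, chr5:90903649-90903898 and chr5:90785851-90786100 on the plus strand and chr5:92348890-92349139 on the minus strand. Capitals mark matches, on either strand, to GGAATTTCC, to the looser GGGNNNTTC (both NF-kB-type words, which may overlap) or to GAAANNGAA, an interferon-response word.

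Cxcl1: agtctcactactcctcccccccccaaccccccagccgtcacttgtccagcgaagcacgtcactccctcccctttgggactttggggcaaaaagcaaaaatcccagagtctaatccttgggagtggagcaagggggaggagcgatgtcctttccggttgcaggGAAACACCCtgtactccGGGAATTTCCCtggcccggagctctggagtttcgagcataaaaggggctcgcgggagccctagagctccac

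Cxcl2: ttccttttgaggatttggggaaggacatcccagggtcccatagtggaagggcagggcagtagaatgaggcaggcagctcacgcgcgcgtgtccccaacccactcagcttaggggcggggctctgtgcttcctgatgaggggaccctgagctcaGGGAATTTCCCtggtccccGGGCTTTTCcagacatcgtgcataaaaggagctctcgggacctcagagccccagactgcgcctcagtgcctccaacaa

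Cxcl3: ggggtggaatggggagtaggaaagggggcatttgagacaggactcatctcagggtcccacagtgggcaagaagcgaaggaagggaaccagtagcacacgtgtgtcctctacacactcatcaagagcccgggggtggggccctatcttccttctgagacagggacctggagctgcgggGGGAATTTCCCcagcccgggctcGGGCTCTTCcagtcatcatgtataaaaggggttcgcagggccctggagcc

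Cxcl10: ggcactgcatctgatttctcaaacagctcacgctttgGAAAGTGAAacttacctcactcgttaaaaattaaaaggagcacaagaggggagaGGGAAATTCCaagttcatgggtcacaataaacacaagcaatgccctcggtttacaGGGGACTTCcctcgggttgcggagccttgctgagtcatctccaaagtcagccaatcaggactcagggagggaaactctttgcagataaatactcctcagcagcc

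GGAATTTCC began 70 bases before the start of Cxcl1, 96 before that of Cxcl2 and 72 before that of Cxcl3. In Cxcl10 its reverse complement, GGAAATTCC, began 158 bases before the start. Of 27025 RefSeq promoters, 79 (0.292%) held this word within 250 bases, on either strand. GGGNNNTTC, which 11.8% of promoters held, matched on both strands around the GGAATTTCC of the 3 ELR ligands, so these overlapping matches are 1 place. A further match lay 88 bases before the start in Cxcl1, 78 in Cxcl2, 50 in Cxcl3 and 104 in Cxcl10. GAAANNGAA was in 7.16% of promoters and matched in Cxcl10, 213 bases before the start, and in none of the 3 ELR ligands. Cxcl9, whose sequence is not shown, had 1 match to GGGNNNTTC and 1 to GAAANNGAA. Cxcl3, Cxcl1 and Cxcl2 lie near each other on chromosome 5, where Cxcl15 stands between Cxcl3 and Cxcl1, and Cxcl9, Cxcl10 and Cxcl11 form another stretch of the same chromosome. Cxcl16 is on chromosome 11. RefSeq lists Cxcl11 as a transcribed pseudogene in this assembly, so its values are levels of RNA from that locus.

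Values are TPM, a length-corrected share of each library's RNA. TPM holds no read counts, so the depth and counting error per library are unknown. Between libraries of a group the correlation of all genes was at least 0.991. Ctbp2 averaged 12.1 ± 1.70 TPM with Ctbp2 siRNA and LPS against 38.2 ± 1.82 TPM with control siRNA and LPS, and Ctbp1 50.8 ± 4.46 TPM with Ctbp1 siRNA against 123 ± 7.33 TPM in the same controls (SD, n = 3 each). In J774.1 cells Ctbp1 was at 19.9 ± 3.30 TPM in the libraries labelled double knockout and 161 ± 3.81 TPM in wildtype, but Ctbp2 was at 63.1 ± 1.38 and 78.2 ± 3.52 TPM (SD, n = 3 each). Both differences in J774.1 passed the test (limma adjusted p = 2.17e-07 for Ctbp1 and 0.000723 for Ctbp2), and the Ctbp2 RNA of the libraries labelled double knockout was 80.7% of that in wildtype. A gene-level value does not show which part of a gene was edited.

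All 8 macrophage markers were above 1 TPM in every BMDM group. In J774.1 cells 7 of 8 were, with Mertk near 0 in both genotypes, and Adgre1 was at 15.8 TPM in double knockout libraries and 225 TPM in wildtype. Other cell types can also make CXC ligands. Among 10 neutrophil markers, the sum with LPS was 88.6 to 183 TPM with Ctbp2 siRNA, 87.5 to 146 TPM with Ctbp1 siRNA and 97.2 to 151 TPM with control siRNA. Ly6g and Elane were listed at 0 in the Ctbp2 siRNA and control siRNA libraries with LPS, but 6 of the 10 averaged at least 1 TPM in each of these groups. The highest were S100a9, at 51.2 TPM with Ctbp2 siRNA and 46.5 TPM with control siRNA, and S100a8, at 42.7 and 37.5 TPM. In J774.1 cells 9 of the 10 were listed at 0. Dendritic cell, lymphocyte and stromal lists summed to at most 7.75 TPM with LPS in BMDMs. The part of other cells in the results was not tested, and in bulk libraries fewer cells of a type and less RNA per cell cannot be told apart.

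Without LPS the chemokine RNA of BMDMs was mostly Cxcl16. The 8 members together made up 132 ± 8.56 TPM with Ctbp2 siRNA, 103 ± 4.01 TPM with Ctbp1 siRNA and 110 ± 4.97 TPM with control siRNA in vehicle (SD, n = 3 each). Cxcl16 held 86.0%, 84.0% and 83.8% of these sums in the same order of siRNAs, and Cxcl2 11.3%, 11.6% and 11.1%. Cxcl1 lay between 1.28 and 2.43 TPM and Cxcl10 between 1.14 and 5.76 TPM over the 9 vehicle libraries, and these neighbours overlapped in each vehicle group. Cxcl3 was at most 0.299 TPM and Cxcl9 at most 0.418 TPM. Cxcl5 and Cxcl11 were listed at 0 in all 9.

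LPS changed both the amount and the makeup. The sum was 14778 ± 1004 TPM with Ctbp2 siRNA, 10606 ± 380 TPM with Ctbp1 siRNA and 11600 ± 3186 TPM with control siRNA (SD, n = 3 each). That was 1.48%, 1.06% and 1.16% of all library TPM in that order. Cxcl2 alone ranked between 6th and 19th among all genes of the 9 LPS libraries. It held 57.2% of the sum with Ctbp2 siRNA, 57.3% with Ctbp1 siRNA and 56.4% with control siRNA, followed by Cxcl1, Cxcl3, Cxcl10 and Cxcl16. Cxcl1 and Cxcl3 overlapped in the control siRNA group, and these 5 did not overlap their neighbours otherwise. Cxcl5 at 1.29 to 4.25 TPM, Cxcl9 at 2.04 to 4.72 TPM and Cxcl11 at 0.389 to 0.625 TPM stayed at the bottom of the order.

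**Figure D1:**
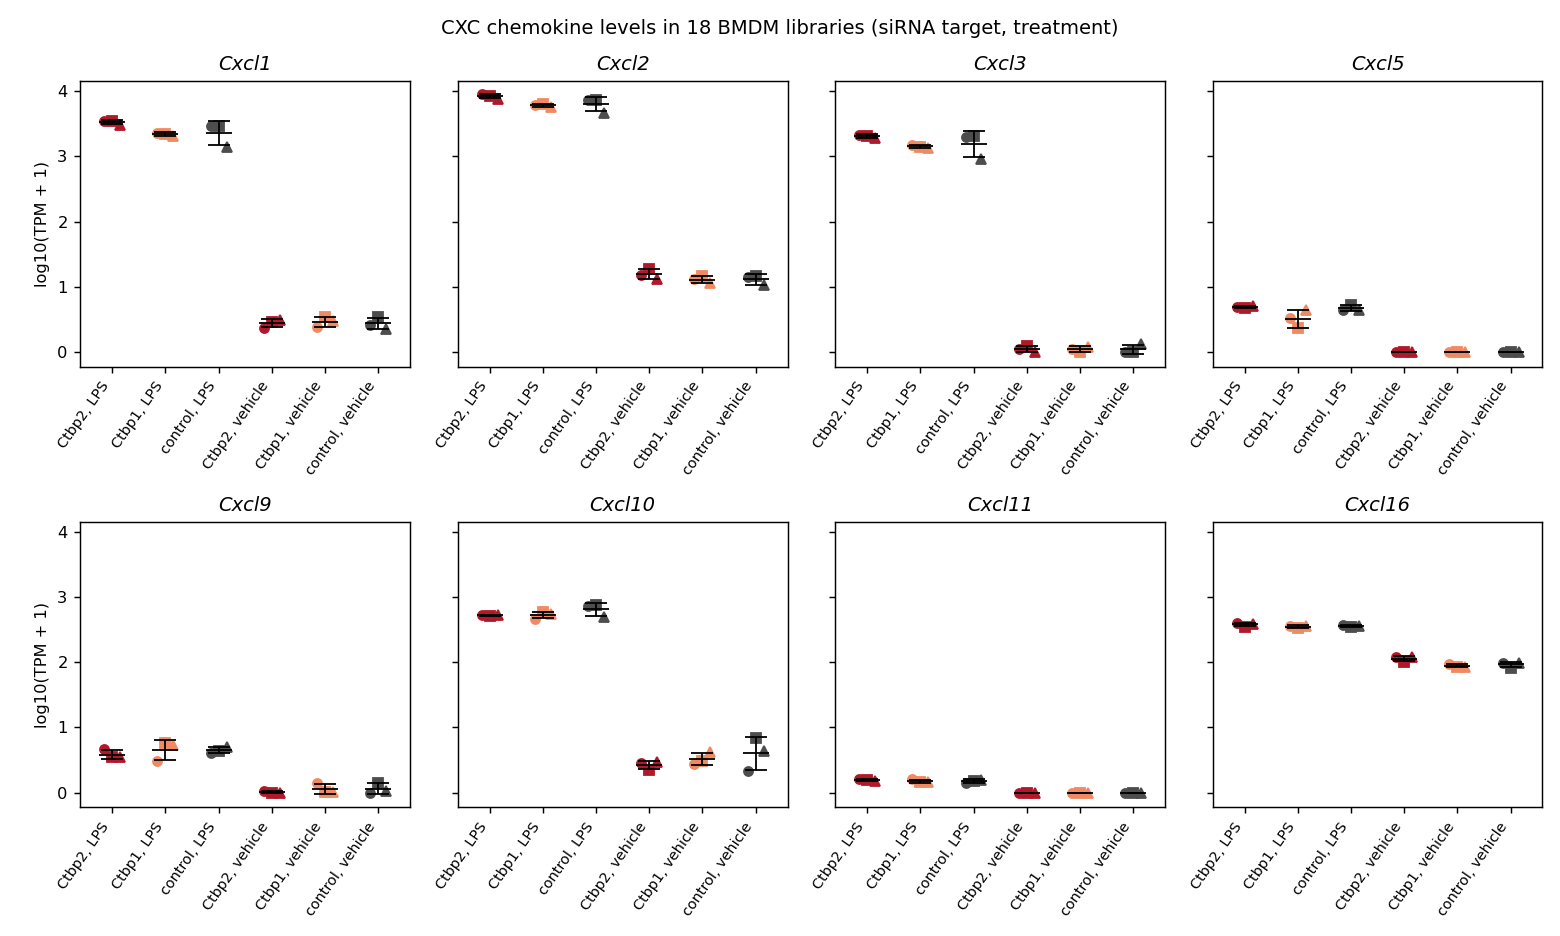
Level of each chemokine as log10(TPM + 1) in the 18 BMDM libraries, by siRNA target and treatment, LPS groups to the left of vehicle groups. Circles, squares and triangles are replicates 1, 3 and 4, and bars are the mean ± SD on this scale. Cxcl2 is the highest member in LPS and Cxcl16 the highest in vehicle.

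Of the 8 members, 5 reached the mean of 10 TPM required for testing in BMDMs: Cxcl1, Cxcl2, Cxcl3, Cxcl10 and Cxcl16. All 5 rose with LPS under each siRNA (limma, Benjamini-Hochberg adjusted p under 0.05), where 23.5% of all genes tested were called higher with Ctbp2 siRNA, 24.5% with Ctbp1 siRNA and 23.3% with control siRNA. Cxcl1, Cxcl3 and Cxcl10 reached the mean of 10 TPM only through their LPS libraries. A rise with LPS was thus partly built into which members were tested, and the count of 5 is no independent support. On the log2(TPM + 1) scale the differences in control siRNA cells were 10.48 ± 0.22 for Cxcl3, 9.72 ± 0.24 for Cxcl1, 8.93 ± 0.18 for Cxcl2, 7.34 ± 0.31 for Cxcl10 and 1.97 ± 0.08 for Cxcl16 (± SE). The largest limma adjusted p of these was 3.48e-11. Cxcl3 was listed at 0 in some vehicle libraries, so its difference depends on the pseudocount and is no fold of levels.

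The LPS contrast moves the whole scale. Rescaling by median-of-ratios factors shifted the median log2 difference of all genes tested by 0.23 with Ctbp2 siRNA, 0.18 with Ctbp1 siRNA and 0.20 with control siRNA. After rescaling, the control siRNA differences were 10.58 for Cxcl3, 9.88 for Cxcl1, 9.13 for Cxcl2, 7.52 for Cxcl10 and 2.18 for Cxcl16. With no filter on low values, all 8 members were called higher with LPS under each siRNA, Cxcl5 at 2.22, Cxcl9 at 1.96 and Cxcl11 at 0.57 on the log2(TPM + 1) scale in control siRNA cells.

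Among the 5 tested members, the ELR ligands Cxcl1, Cxcl2 and Cxcl3 had the largest positive estimates for Ctbp2 siRNA under LPS, and none of them passed the test against control siRNA. Cxcl1 was at 3475, 3518 and 3093 TPM in replicates 1, 3 and 4 with Ctbp2 siRNA, against 2945, 2908 and 1422 TPM with control siRNA. Every Ctbp2 siRNA library was above every control library. The difference was 0.54 ± 0.24 on the log2(TPM + 1) scale (SE; 95% interval 0.03 to 1.06; limma adjusted p = 0.227). The authors' deposited table gives 0.53 for Cxcl1, with an adjusted p of 0.382. The SE comes from a spread shared by all BMDM groups, vehicle included. On the same scale the control siRNA LPS libraries deviated from their mean by 0.36, 0.34 and -0.69. Those with Ctbp2 siRNA deviated by 0.05, 0.07 and -0.12. This SE and interval may thus understate the spread of the compared groups.

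Cxcl2, a main neutrophil attractant of mouse macrophages, was at 8974, 8637 and 7737 TPM with Ctbp2 siRNA, against 7248, 7500 and 4720 TPM with control siRNA. Here too the groups did not overlap. The difference was 0.41 ± 0.18 (SE; 95% interval 0.03 to 0.79; limma adjusted p = 0.220), and the authors' deposited table gives 0.45 with an adjusted p of 0.129. For Cxcl2 the control libraries deviated from their mean by 0.19, 0.24 and -0.43. This SE and interval may therefore also understate the spread of the compared groups. The numbered replicates of these 2 groups deviated together weakly in all 3 pairs (r of 0.103, 0.111 and 0.191). Control replicate 1 and Ctbp2 siRNA replicate 3, which differ in number, had r of 0.0969. With the replicate number as a block the limma adjusted p of Cxcl2 was 0.0218. That block spans all BMDM libraries, where same-numbered replicates had r over 0.1 in 21 of 45 pairs.

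Cxcl3 was at 2166, 2094 and 1892 TPM with Ctbp2 siRNA, against 1965, 2085 and 919 TPM with control siRNA. These groups overlapped, with a difference of 0.40 ± 0.22 (SE; limma adjusted p = 0.337). The SE has the same limit as those of Cxcl1 and Cxcl2. Cxcl5 was at 3.85, 3.75 and 4.00 TPM with Ctbp2 siRNA, against 3.42, 4.25 and 3.38 TPM with control siRNA, too low for the test.

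In all, 0 of the 5 tested members were called for Ctbp2 siRNA against control siRNA in LPS, where 3.17% of genes tested were called, and 2 had an unadjusted limma p under 0.05. Of the 5, 2 had higher and not overlapping groups (Cxcl1 and Cxcl2), against 4.51% of all genes tested. The median difference was 0.40 over the 5 members and -0.05 over all genes tested. The median of all genes was 0.01 after rescaling by median-of-ratios factors, which turned the split of calls among all genes to 124 higher and 81 lower, against 61 higher and 190 lower as deposited, and called none of the 5.

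A single control library set the size of these differences. Replicate 4 of the control siRNA LPS group stood at 48.6% of the mean of the other libraries of its group for Cxcl1, 64.0% for Cxcl2, 45.4% for Cxcl3 and 66.4% for Cxcl10, but at 100.5% for Cxcl16. It also had the most genes at 1 TPM or more of the 9 LPS-treated BMDM libraries, 11801, and its part in the results was not tested beyond leaving it out. Without it, the difference for Ctbp2 siRNA against control siRNA was 0.20 for Cxcl1, 0.19 for Cxcl2, 0.02 for Cxcl3 and -0.49 for Cxcl10 (limma adjusted p = 0.632, 0.617, 0.963 and 0.569 in that order).

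**Figure D2:**
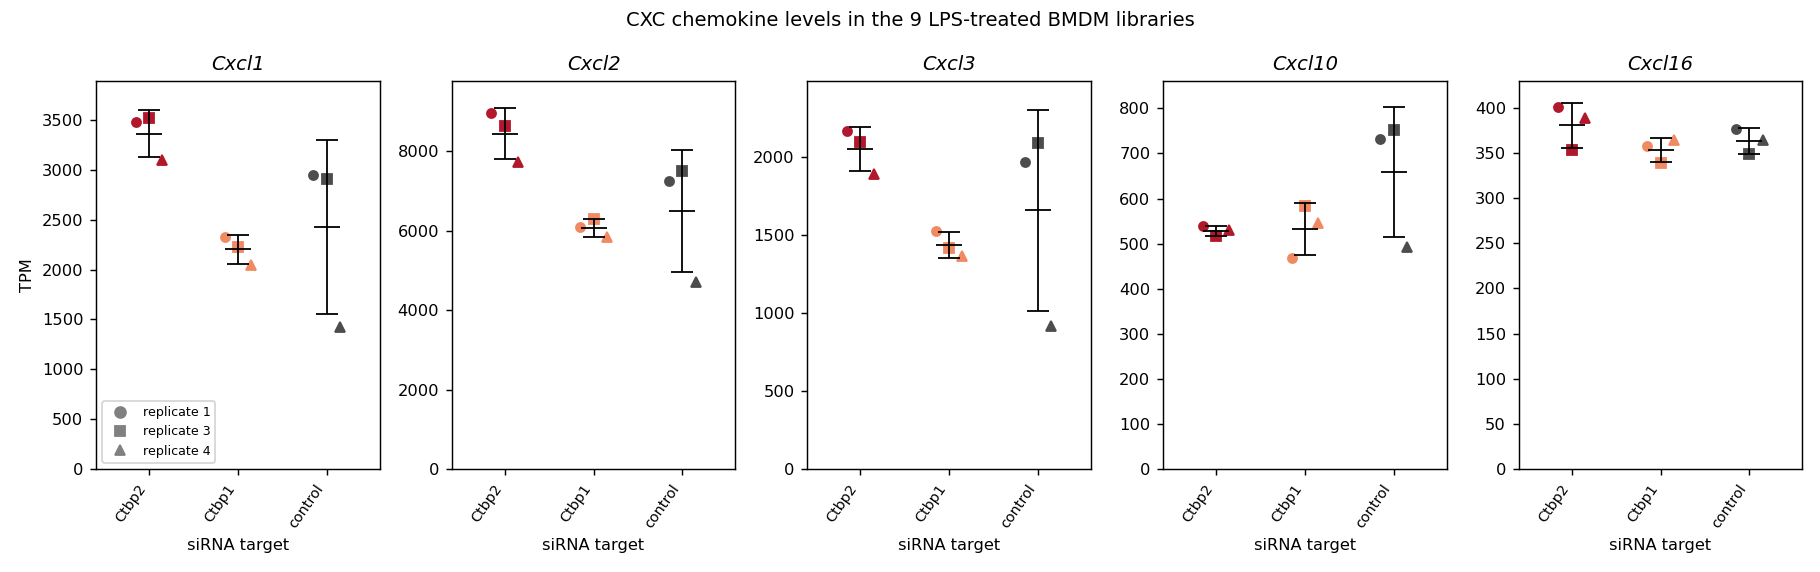
TPM of the 5 tested chemokines in the 9 LPS-treated BMDM libraries on linear axes from 0, with Ctbp2 and Ctbp1 siRNA left of control siRNA. Symbols are replicates and bars the mean ± SD (n = 3). Replicate 4 of control siRNA is the lowest point for Cxcl1, Cxcl2 and Cxcl3, at 1422, 4720 and 919 TPM.

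Set against Ctbp1 siRNA in LPS, all 4 ELR ligands were higher with Ctbp2 siRNA in every library. The 3 LPS libraries with Ctbp1 siRNA lay close together for Cxcl1, Cxcl2 and Cxcl3, but not for the low Cxcl5. Cxcl1 was at 3475, 3518 and 3093 TPM with Ctbp2 siRNA, against 2331, 2230 and 2048 TPM with Ctbp1 siRNA, a difference of 0.61 ± 0.24 (SE; limma adjusted p = 0.128). Cxcl2 had 6099, 6286 and 5839 TPM with Ctbp1 siRNA, below the Ctbp2 siRNA values given above, and differed by 0.47 ± 0.18 (SE; limma adjusted p = 0.113). Cxcl3 had 1526, 1417 and 1365 TPM with Ctbp1 siRNA and differed by 0.51 ± 0.22 (SE; limma adjusted p = 0.159).

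Cxcl5 was at 3.85, 3.75 and 4.00 TPM with Ctbp2 siRNA, against 2.34, 1.29 and 3.35 TPM with Ctbp1 siRNA. With a minimum mean of 1 TPM it could be tested, and differed by 0.60 ± 0.17 (SE; limma adjusted p = 0.0640). The shared spread includes the vehicle libraries, all listed at 0 for Cxcl5, so this SE and p understate the spread of the compared groups. Of the 5 tested members, 0 were called in this comparison, where 6.79% of genes tested were called. An unadjusted limma p under 0.05 was found for 3 of them, and the same 3 were higher without overlap, against 5.76% of all genes. When the spread came from the 6 compared libraries alone, the limma adjusted p was 0.00739 for Cxcl1, 0.0141 for Cxcl2 and 0.0129 for Cxcl3. Without replicate 4 of the control siRNA LPS group, which enters only through the shared spread, it was 0.0154 for Cxcl1, 0.0356 for Cxcl2 and 0.00556 for Cxcl3. These were the lowest values over all single libraries left out. The highest limma adjusted p was 0.275 for Cxcl1, 0.278 for Cxcl2 and 0.329 for Cxcl3.

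Ctbp1 siRNA against control siRNA in LPS gave no called member among 5, where 0.152% of genes tested were called, and 0 at an unadjusted limma p under 0.05. The estimates were -0.06 ± 0.24 for Cxcl1, -0.07 ± 0.18 for Cxcl2, -0.12 ± 0.22 for Cxcl3, -0.29 ± 0.31 for Cxcl10 and -0.04 ± 0.08 for Cxcl16 (± SE). Without replicate 4 of control siRNA, Cxcl3 fell by 0.50 with Ctbp1 siRNA (limma adjusted p = 0.0364), and the estimates were -0.41 for Cxcl1, -0.28 for Cxcl2 and -0.48 for Cxcl10. The siRNA comparisons within one treatment share their control libraries. The difference between the LPS responses under siRNA and control siRNA was called for 0 of 5 members with Ctbp2 siRNA, where 0.101% of genes were called, and for 0 of 5 with Ctbp1 siRNA, where 0.0126% were. At an unadjusted limma p under 0.05 there was 1 with Ctbp2 siRNA (Cxcl16, -0.23 ± 0.11, SE) and 0 with Ctbp1 siRNA.

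Ratios between the ELR ligands moved less than their levels. Cxcl1 over Cxcl3 was 1.64 ± 0.04 with Ctbp2 siRNA, 1.53 ± 0.04 with Ctbp1 siRNA and 1.48 ± 0.08 with control siRNA in LPS (SD, n = 3 each). The Ctbp2 siRNA ratios, at 1.60 to 1.68, lay above those of both other groups, and the low control library had a ratio of 1.55. Cxcl2 over Cxcl1 was 2.51 ± 0.06 with Ctbp2 siRNA, 2.76 ± 0.13 with Ctbp1 siRNA and 2.79 ± 0.47 with control siRNA (SD, n = 3 each). The low control library had a ratio of 3.32. The other control libraries, at 2.46 and 2.58, lay within the 2.45 to 2.58 of Ctbp2 siRNA.

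Cxcl10 was the most abundant of the Cxcr3 ligands. It was at 539, 517 and 529 TPM with Ctbp2 siRNA and LPS and at 469, 583 and 545 TPM with Ctbp1 siRNA, against 732, 752 and 493 TPM with control siRNA. The groups overlapped through the same low control library, and the difference for Ctbp2 siRNA against control siRNA was -0.29 ± 0.31 (SE; limma adjusted p = 0.647). Cxcl9 was at 3.61, 2.49 and 2.49 TPM with Ctbp2 siRNA, against 3.04, 3.37 and 3.96 TPM with control siRNA, and Cxcl11 was below 1 TPM throughout. In vehicle, Cxcl10 was at 1.87, 1.24 and 1.95 TPM with Ctbp2 siRNA, against 1.14, 5.76 and 3.40 TPM with control siRNA, a difference of -0.58 ± 0.31 (SE; limma adjusted p = 0.459).

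The ratio of Cxcl2 to Cxcl10 within a library separated the siRNA groups in LPS. It was 16.6, 16.7 and 14.6 with Ctbp2 siRNA and 13.0, 10.8 and 10.7 with Ctbp1 siRNA, against 9.90, 9.98 and 9.58 with control siRNA. The 3 groups did not overlap, and the low control library had a ratio like those of its group. The mean ratio was 1.63 times that of control siRNA with Ctbp2 siRNA and 1.17 times with Ctbp1 siRNA. This ratio was chosen after its parts were seen, and 3 against 3 libraries cannot give a two-sided exact permutation p below 0.10, so it is a description. It shows unequal differences of the 2 genes and not which of them moved.

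In the fit over all 18 BMDM libraries Cxcl16 was the only member with a called difference between siRNAs, and it was found in vehicle. It was at 120, 101 and 120 TPM with Ctbp2 siRNA and at 92.4, 83.9 and 84.5 TPM with Ctbp1 siRNA, against 97.2, 81.8 and 97.7 TPM with control siRNA. The Ctbp2 siRNA values lay above both other groups without overlap, as did 7.30% of all genes tested against Ctbp1 siRNA and 7.03% against control siRNA. Against Ctbp1 siRNA it rose by 0.38 ± 0.08 (SE; 95% interval 0.22 to 0.54; limma adjusted p = 0.0201), 1 of 5 members called where 0.947% of genes were called. Leaving out single libraries of these groups gave a limma adjusted p of 0.00652 to 0.116, and the call was lost without replicate 3 or 4 of Ctbp1 siRNA or replicate 1 or 4 of Ctbp2 siRNA.

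Against control siRNA in vehicle the difference of Cxcl16 was 0.30 ± 0.08 (SE; limma adjusted p = 0.0764), which misses the threshold, and 0 of 5 members were called where 1.02% of genes were. Cxcl16 was the 1 member with an unadjusted limma p under 0.05. The authors' deposited table gives 0.35 for it, with an adjusted p of 0.0135. Without replicate 3 of the Ctbp2 siRNA vehicle group the limma adjusted p was 0.0333. In LPS, Cxcl16 was at 401, 353 and 389 TPM with Ctbp2 siRNA, against 377, 348 and 364 TPM with control siRNA, groups that overlapped (difference 0.07 ± 0.08, SE; limma adjusted p = 0.662). The other 4 tested members had vehicle differences from control siRNA of at most 0.26 upward with Ctbp2 siRNA, the value of Cxcl2 (SE 0.18; limma adjusted p = 0.579). Cxcl10 had a larger one downward, -0.58 (SE 0.31; limma adjusted p = 0.459), and the authors' deposited table gives -0.95 with an adjusted p of 0.153. With Ctbp1 siRNA in vehicle 0 of 5 were called, where 0.215% of genes were, and 0 had an unadjusted limma p under 0.05. Cxcl1, Cxcl3 and Cxcl10 lay below 10 TPM in every vehicle library and were tested through their LPS values. The vehicle counts therefore say little about them.

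**Figure D3:**
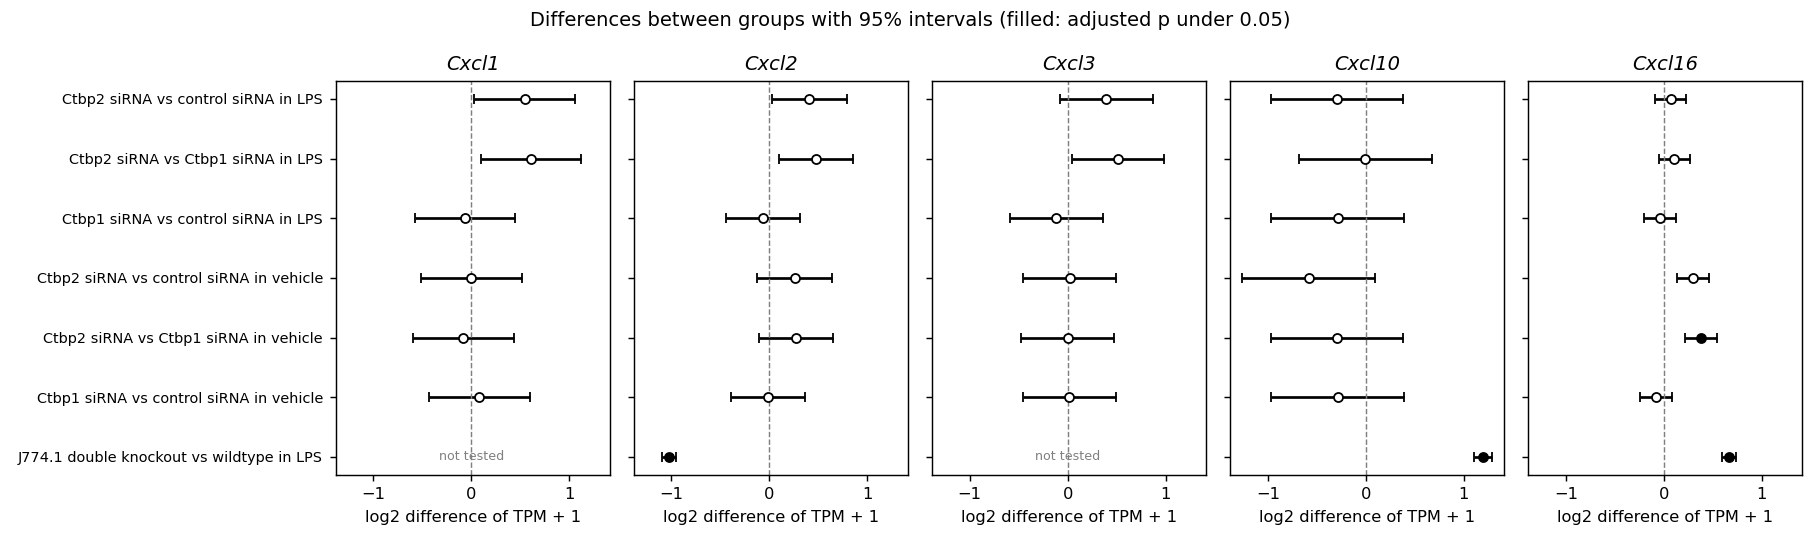
Difference between groups on the log2(TPM + 1) scale (x axis) with 95% intervals for the 5 chemokines tested, 1 row per comparison, first-named group minus second. Filled points have an adjusted p under 0.05. Among BMDM rows the point of Cxcl16 for Ctbp2 siRNA against Ctbp1 siRNA in vehicle is filled, and in the J774.1 row Cxcl2 lies at -1.03, Cxcl10 at 1.20 and Cxcl16 at 0.67.

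J774.1 cells expressed a narrower set of these ligands, which differed in both directions between double knockout and wildtype libraries. Cxcl1 and Cxcl5 were listed at 0 in all 6 libraries, Cxcl3 was at most 0.285 TPM and Cxcl9 at most 0.321 TPM. The 2 tables were quantified separately, so levels are not tested across them. Of the 8 members 3 reached the mean of 10 TPM, and all 3 were called for double knockout against wildtype, 2 higher and 1 lower, where 42.0% of genes tested were called, 25.4% higher and 16.6% lower. Of 7 tested macrophage markers 5 rose and 2 fell. Those that fell were Cd14, at 932 TPM in double knockout and 1684 TPM in wildtype, and Adgre1. The summed markers, in which Cd14 weighs most, were at 2392 to 2650 TPM in double knockout and 3061 to 3124 TPM in wildtype libraries. The part of these differences in the results was not tested.

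Cxcl2 fell to 1708, 1671 and 1598 TPM in double knockout cells, against 3254, 3446 and 3436 TPM in wildtype cells. The difference was -1.03 ± 0.03 (SE; limma adjusted p = 8.73e-08), with every knockout library below every wildtype library. Cxcl10 rose to 1717, 1661 and 1553 TPM in double knockout cells, against 702, 739 and 708 TPM in wildtype (1.20 ± 0.04, SE; limma adjusted p = 9.78e-08). Cxcl16 rose to 466, 488 and 458 TPM in double knockout cells, against 295, 302 and 292 TPM in wildtype (0.67 ± 0.03, SE; limma adjusted p = 7.45e-07). None of these groups overlapped, which held for 53.9% of all genes tested.

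Cxcl11 was low and, like Cxcl10, higher in the knockout. It was at 6.72, 5.95 and 5.07 TPM in double knockout cells, against 1.30, 1.39 and 1.73 TPM in wildtype. With a minimum mean of 1 TPM it rose by 1.48 ± 0.13 (SE; limma adjusted p = 8.97e-05). The authors' deposited table gives 1.94 for it, with an adjusted p of 1.45e-28. Cxcl9, the third Cxcr3 ligand, was at 0.321, 0.0277 and 0.0804 TPM in double knockout cells and at most 0.0219 TPM in wildtype.

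**Figure D4:**
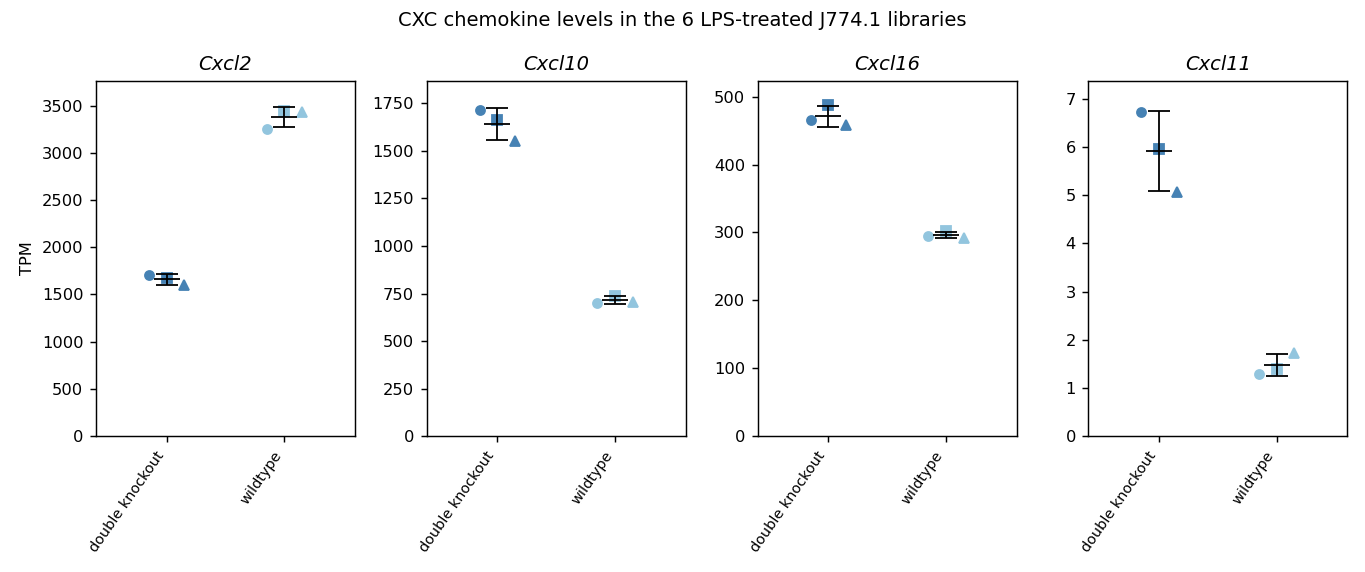
TPM of 4 chemokines in the 6 LPS-treated J774.1 libraries on linear axes from 0, double knockout left of wildtype. Points are libraries and bars the mean ± SD (n = 3). Cxcl2 lies lower in double knockout (1598 to 1708 TPM), and Cxcl10, Cxcl16 and Cxcl11 lie higher.

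The makeup of the chemokine RNA differed accordingly. Summed over the 8 members the level was 3780 ± 148 TPM in double knockout and 4393 ± 125 TPM in wildtype (SD, n = 3 each). Cxcl2 held 43.9 ± 0.28% of it in double knockout and 76.9 ± 0.46% in wildtype, and Cxcl10 43.5 ± 0.55% and 16.3 ± 0.31% in the same order (SD, n = 3 each). Cxcl16 held 12.5% in double knockout and 6.75% in wildtype. The ratio of Cxcl2 to Cxcl10 was 0.995, 1.01 and 1.03 in double knockout libraries, against 4.63, 4.66 and 4.85 in wildtype libraries. It was lower in the knockout, whereas in LPS-treated BMDMs it was higher with Ctbp2 siRNA than with control siRNA. That difference between the systems was not tested.

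**Figure D5:**
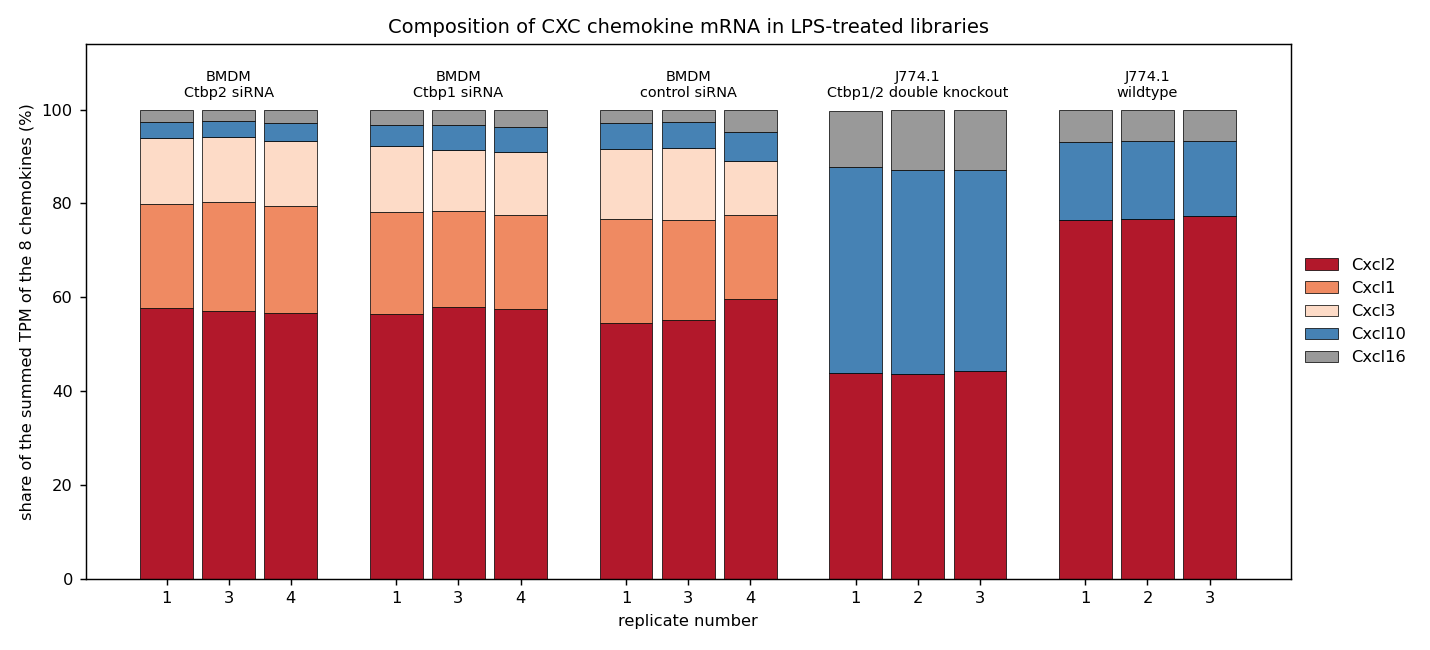
Share of the summed TPM of the 8 chemokines (y axis, %) held by the 5 most abundant in each LPS-treated library. Each bar is a library, with BMDM siRNA groups on the left and J774.1 groups on the right. Cxcl2 holds 43.7 to 44.2% in double knockout libraries and 76.5 to 77.4% in wildtype J774.1 libraries.

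Genes of the pathways above the chemokines were read from the same fits. In the NF-kB arm, 19 genes running from Tlr4 to the NF-kB subunits and their inhibitors, 1 rose and 1 fell for Ctbp2 siRNA against control siRNA in LPS. Of all 7918 genes tested 3.17% were called in this comparison, 61 higher and 190 lower. Bcl3, a nuclear regulator of NF-kB, rose by 0.39 (limma adjusted p = 0.00894) and the kinase Irak4 fell by 0.29 (limma adjusted p = 0.0298). The median was 0.07 over the 19 and -0.05 over all genes tested. Of the 8 genes of mRNA decay and stability, 2 rose: Zfp36, which binds AU-rich elements, by 0.29 (limma adjusted p = 0.00990) and the RNase gene Zc3h12a by 0.25 (limma adjusted p = 0.0416). None of the 16 tested genes of the interferon arm was called in LPS.

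In the J774.1 knockout both arms had many calls, beside 42.0% of all genes tested, 25.4% higher and 16.6% lower. Of 17 tested NF-kB genes 8 rose and 4 fell. Nfkbiz, a co-activator needed for a subset of LPS genes, fell to 52.9 ± 3.82 TPM in double knockout cells, against 189 ± 3.77 TPM in wildtype (SD, n = 3 each; log2 difference -1.82, limma adjusted p = 3.94e-08). The LPS co-receptor Cd14 fell by 0.86 and the inhibitor Nfkbia by 0.45, and the adaptor Myd88 rose by 0.36. The median was 0.11 over the 17 genes and 0.03 over all genes tested.

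Of 17 tested genes of the interferon arm 12 rose and 2 fell, with a median of 0.39, where 25.4% of all genes tested were called higher and 16.6% lower. Jak2, a kinase of the interferon-gamma receptor, rose by 2.14, Stat2 by 1.42 and the kinase Tyk2 by 1.19, while the transcription factor Irf8 fell by 1.53. Ifnb1, which encodes interferon-beta and was picked after its values were seen, fell to 13.0 ± 1.10 TPM in double knockout cells, against 35.7 ± 1.40 TPM in wildtype (SD, n = 3 each; limma adjusted p = 1.04e-06), in the libraries where Cxcl10 was higher. Of 8 decay genes 1 rose and 5 fell, with Zfp36l1 at 1.06 and Zc3h12a at -0.84. Among the proteases that process chemokines, 2 were tested, and Adam10, a sheddase of Cxcl16, rose by 0.30 (limma adjusted p = 0.000631).

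Other CXC ligands and the receptors were mostly low. Pf4, the platelet chemokine Cxcl4, was at 317 ± 32.2 TPM with Ctbp2 siRNA and 385 ± 43.0 TPM with control siRNA in LPS-treated BMDMs (SD, n = 3 each), and was listed at 0 in J774.1. Cxcl14 was at 27.0 ± 0.75 TPM in double knockout and 16.5 ± 0.21 TPM in wildtype J774.1 cells (SD, n = 3 each). Cxcr4, the receptor of Cxcl12, fell with LPS by 4.60 in control siRNA BMDMs (limma adjusted p = 3.61e-14). The receptors of the members stayed low in BMDMs with LPS: Cxcr2 was at most 0.250 TPM and Cxcr3 averaged 0.78 TPM in control siRNA cells. Cxcr3 was at 11.8 ± 0.35 TPM in double knockout and 1.34 ± 0.13 TPM in wildtype J774.1 cells (SD, n = 3 each), with a mean over the 6 libraries below 10 TPM.

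The genes most like each member over the 9 LPS-treated BMDM libraries were found by Pearson's r of log2(TPM + 1). For Cxcl1 they were Rffl (0.991), Ptgs2 (0.989) and Tnf (0.988), and for Cxcl2 Tnf (0.989), Serpinb2 (0.988) and Cxcl1 (0.986). For Cxcl3 they were Ptgs2 (0.991), Shisa3 (0.986) and Rffl (0.985). Ptgs2 encodes cyclooxygenase-2 and Tnf the cytokine TNF. For Cxcl10 they were Cmpk2 (0.968), Daxx (0.966) and Mx2 (0.955), and for Cxcl16 Bmp2k (0.948), Fth1 (0.940) and Vasp (0.900). These values describe shared variation that includes the low control library, and they carry no test.

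The members also differ in the AU-rich words of their 3′ untranslated regions, counted in GENCODE M21 transcripts of GRCm38. The nonamer TTATTTATT occurred 4 times in Cxcl2, 2 times in Cxcl1, 1 time in Cxcl3 and not in the other 5, and 6.35% of 19685 genes had it. The pentamer ATTTA, which the nonamer contains, had a density per kb of 15.0 in Cxcl2, 11.8 in Cxcl1, 7.75 in Cxcl3 and 4.50 in Cxcl5. It was 2.74 in Cxcl10, 1.41 in Cxcl16, 1.22 in Cxcl9 and 0.821 in Cxcl11, against a median of 1.01 over all genes. Sense-strand words alone were counted.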

How the data were processed

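RNA was sequenced from polyadenylated RNA with an unstranded kit, per the labels' protocols. The submitters' processing notes name Salmon 1.9.0, FastQC, R 4.4.1 and DESeq2 1.44.0. The authors deposited TPM (transcript abundance per length and library total) per gene and library, and the BMDM file headers name Salmon, mm39 and scaled TPM. The authors' deposited comparison tables hold a log2 fold change, a p-value before and after adjustment and the mean normalized signal per gene from DESeq2. TPM holds no depth, so no counting error is given, and the number of replicates limits the precision.

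Here limma 3.58.1 in R 4.3.3 (lmFit, then eBayes with trend and robust) was fitted across all genes on log2(TPM + 1) with a mean TPM of at least 10, which left 7918 genes in the 18 BMDM libraries and 7782 in the 6 J774.1 libraries. Calls have a Benjamini-Hochberg adjusted p under 0.05. The scripts were tested on simulated data. The members and gene lists were chosen with earlier results of these data known. Each list names up to 4 called genes of smallest adjusted p, and 3 genes are named as most like each member.

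Same-numbered replicates deviated together at r over 0.1 in 21 of 45 BMDM pairs and 1 of 3 J774.1 pairs. In BMDMs the median r was 0.0899 for same-numbered and -0.029 for differently numbered replicates. A shared effect of the replicate number was not tested, and the main fits had no block. For Ctbp2 siRNA against control siRNA in LPS all 3 pairs were over 0.1, with r of 0.103, 0.111 and 0.191. Alternatives were another pseudocount, filter or scaling, a replicate block, fits on the compared groups and each library left out. A result for 1 gene of the pathway lists is not reported here.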

Additional observations from a re-analysis of the deposited data

Results flagged for a closer look

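Cxcl2 had differences of opposite sign in the 2 systems under LPS. The difference was -1.03 on the log2(TPM + 1) scale for Ctbp1/2 double knockout against wildtype J774.1 cells, with every knockout library below every wildtype library. For Ctbp2 siRNA against control siRNA in BMDMs the difference was 0.41, with every Ctbp2 siRNA library above every control library, and it did not pass the test (limma adjusted p = 0.220). With the replicate number as a block it did (limma adjusted p = 0.0218), though the 3 pairs of libraries deviated together only weakly (r of 0.103 to 0.191). The difference between the systems was not tested. They were quantified separately and differ in cells, in sex and strain of origin and in which of Ctbp1 and Ctbp2 was lowered. Without replicate 4 of the control siRNA LPS group the BMDM difference was 0.19.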

How the results depend on the processing

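For the J774.1 knockout 3 of 3 tested members were called under every alternative that kept the filter, 4 of 4 with a minimum mean of 1 TPM and 4 of 6 with no filter. For LPS all members tested were called under every alternative run, 5 to 8 of them. With a replicate block 1 member was called for Ctbp2 siRNA against control siRNA in LPS (Cxcl2, limma adjusted p = 0.0218), 1 in vehicle (Cxcl16, limma adjusted p = 0.00263) and 1 for Ctbp2 siRNA against Ctbp1 siRNA in LPS (Cxcl2, limma adjusted p = 0.00831). On the compared libraries alone 3 were called when the Ctbp2 and Ctbp1 siRNAs were compared in LPS, and 0 in vehicle, where no filter on low values also gave 0. With no filter 8 were called higher with LPS under each siRNA, since more members are then tested. Leaving out single libraries gave 0 to 1 for Ctbp1 siRNA against control siRNA in LPS, 0 to 1 for Ctbp2 siRNA against control siRNA in vehicle, and, between the Ctbp2 and Ctbp1 siRNAs, 0 to 3 in LPS and 0 to 1 in vehicle. Apart from the no-filter counts, the cause was not tested. Median-of-ratios scaling moved the summed level of the 8 members to 16388 TPM with Ctbp2 siRNA and 11153 TPM with Ctbp1 siRNA in LPS, and to 95.5 TPM with Ctbp1 siRNA and 101 TPM with control siRNA in vehicle. No direction of a called value reversed. The unknown depth limits the low members Cxcl5, Cxcl9 and Cxcl11.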
